A study of Homo sapiens and Mus musculus with 4 samples.

Results

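Receptors of the natural killer (NK) type and the adaptor proteins through which they signal were followed in 4 established cell lines. The genes form a list fixed by name, drawn up with earlier results of these libraries known: the 7 receptor or marker genes KLRB1, KLRD1, KLRC1, KLRK1, KLRG1, NCR3 and NCAM1, the 3 adaptor genes TYROBP, FCER1G and HCST, and the mouse genes of the same symbol. All 10 human genes and 9 mouse genes were found among the 60736 genes measured, 32738 of them human and 27998 mouse. Mouse Ncr3 was not analysed here. Messenger RNA was sequenced in bulk from 1 library per line, as the reference for a comparison of single-cell methods. Jurkat is a human leukaemia line used as a CD4+ T cell, and TALL104 a human leukaemia line used as a CD8+ T cell and kept in medium with interleukin-2. EL4 is a mouse lymphoma line used as a CD4+ T cell, and IVA12 a mouse hybridoma line used as a B cell. No line carried an engineered allele or received a further agent beyond its medium according to the labels and the methods. The medium of EL4 held mercaptoethanol, which the methods do not list for the other lines. The base was RPMI for Jurkat and EL4, DMEM for IVA12 and IMDM for TALL104, so the lines of both pairs differed in medium. The medium of TALL104 also held more serum than the others. The paper describes TALL104 cells as harder to culture, with slow growth and reduced viability, and this cannot be told apart from the line. Jurkat, EL4 and IVA12 were grown without added interleukin-2, so the line and its medium cannot be told apart. With no replicates, the spread between cultures is unknown and no test was run. A bulk library also cannot tell fewer cells that use a gene from less of its RNA per cell.

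NK cells and cytotoxic T cells read the surface of other cells through receptors that activate or inhibit them. Most activating receptors have no signalling tail of their own and pair in the membrane with a small adaptor. TYROBP (DAP12) and FCER1G (the Fc receptor gamma chain) carry an immunoreceptor tyrosine-based activation motif, or ITAM, which recruits the kinases SYK and ZAP70 once phosphorylated. HCST (DAP10) instead carries a shorter tyrosine motif that recruits phosphoinositide 3-kinase and GRB2. KLRK1 (NKG2D) pairs with HCST, NCR3 (NKp30) with FCER1G or CD247, and KLRC1 (NKG2A) forms a heterodimer with KLRD1 (CD94). KLRC1 and KLRG1 are inhibitory and carry immunoreceptor tyrosine-based inhibition motifs, or ITIMs. KLRB1 (CD161) is a lectin-like receptor of NK and memory T cells, and NCAM1 (CD56) is the adhesion molecule by which human NK cells are usually gated.

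The coding sequence of these motifs shows how the adaptors and inhibitory receptors differ, and it was read from the hg19 and mm10 annotations with the tyrosine codons in capitals. The ITAM of TYROBP was 45 bases on the minus strand of chr19:36395498-36398125, split between exons 4 and 5 of 5, and covered residues 91 to 105 of 113.
TYROBP: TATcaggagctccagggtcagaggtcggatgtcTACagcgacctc
The ITAM of FCER1G was also 45 bases, on the plus strand of chr1:161188508-161188709 across exons 4 and 5 of 5, and covered residues 65 to 79 of 86.
FCER1G: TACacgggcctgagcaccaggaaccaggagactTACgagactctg
HCST held 1 tyrosine motif of 12 bases in exon 4 of 4, on the plus strand of chr19:36395036-36395047.
HCST: TACatcaacatg
KLRC1 held a pair of ITIMs of 18 bases in exon 3 of 8, on the minus strand at chr12:10603723-10603740 and chr12:10603627-10603644, and KLRG1 held 1 ITIM in exon 1 of 5, on the plus strand at chr12:9142244-9142261.
KLRC1 first: gtaatcTACtcagacctg
KLRC1 second: ataaccTATgcggaatta
KLRG1: gttattTATtccatgtta
The mouse adaptors detected in the mouse lines are shown for comparison, Fcer1g on the minus strand of chr1:171229889-171230072 and Hcst on the minus strand of chr7:30417821-30417832 (mm10).
Fcer1g: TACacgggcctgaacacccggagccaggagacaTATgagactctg
Hcst: TACatcaacatg
Both species had the same 12 bases in HCST. Of the 45 ITAM bases, 40 were the same in FCER1G and 38 in TYROBP, or 88.9% and 84.4%. The ITIM of KLRG1 shared 11 of 18 bases with the mouse gene, and each ITIM of KLRC1 shared 13 of 18 with the single match found in mouse Klrc1.

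Levels were given as FPKM, the fragments of a gene per kilobase of its length and relative to the fragments of the library, so that genes could be compared per length. Depth, recovered from the steps between FPKM values, ranged from 25286728 reads for IVA12 to 34783047 for Jurkat. Each value has an exact Poisson interval at 95%, which covers counting error only, since the reads were not tied to single molecules. A gene was called detected at 1 FPKM or more. Of the 32738 human genes, 10857 were detected in Jurkat and 10822 in TALL104. Of the 27998 mouse genes, 9596 were detected in EL4 and 9809 in IVA12. Genes of the other species gave the background: the 9 mouse members had 0 reads in all in Jurkat and 1 in TALL104, and the 10 human members had 1 read in EL4 and 4 in IVA12. The T cell markers summed to 753 FPKM in Jurkat, 572 in TALL104 and 530 in EL4 (5 of 5 detected in each), against 11.3 FPKM in IVA12. Of the B cell markers, IVA12 had Cd79b at 163 FPKM and Ms4a1 at 46.5, while Cd79a lay at 0.0543.

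TALL104 had 8 of the 10 human members at 1 FPKM or more and Jurkat had HCST alone. Of all 32738 human genes, 10822 reached this level in TALL104 and 10857 in Jurkat. The members summed to 958 FPKM in TALL104 and 17.8 in Jurkat. On the scale of log2(FPKM + 1), 9 of the 10 were more than 1.5-fold higher in TALL104, none was higher in Jurkat and KLRG1 lay within 1.5-fold. Of all 32738 human genes, 11.4% were past this threshold toward TALL104 and 13.8% toward Jurkat. Of the 12214 genes with at least 1 FPKM in either line, the shares were 28.4% and 34.2%. The median log2 ratio of the members was 3.91, against -0.10 over those 12214 genes. Given how the list was drawn up, this contrast describes the genes and supports nothing beyond these libraries.

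**Figure D1:**
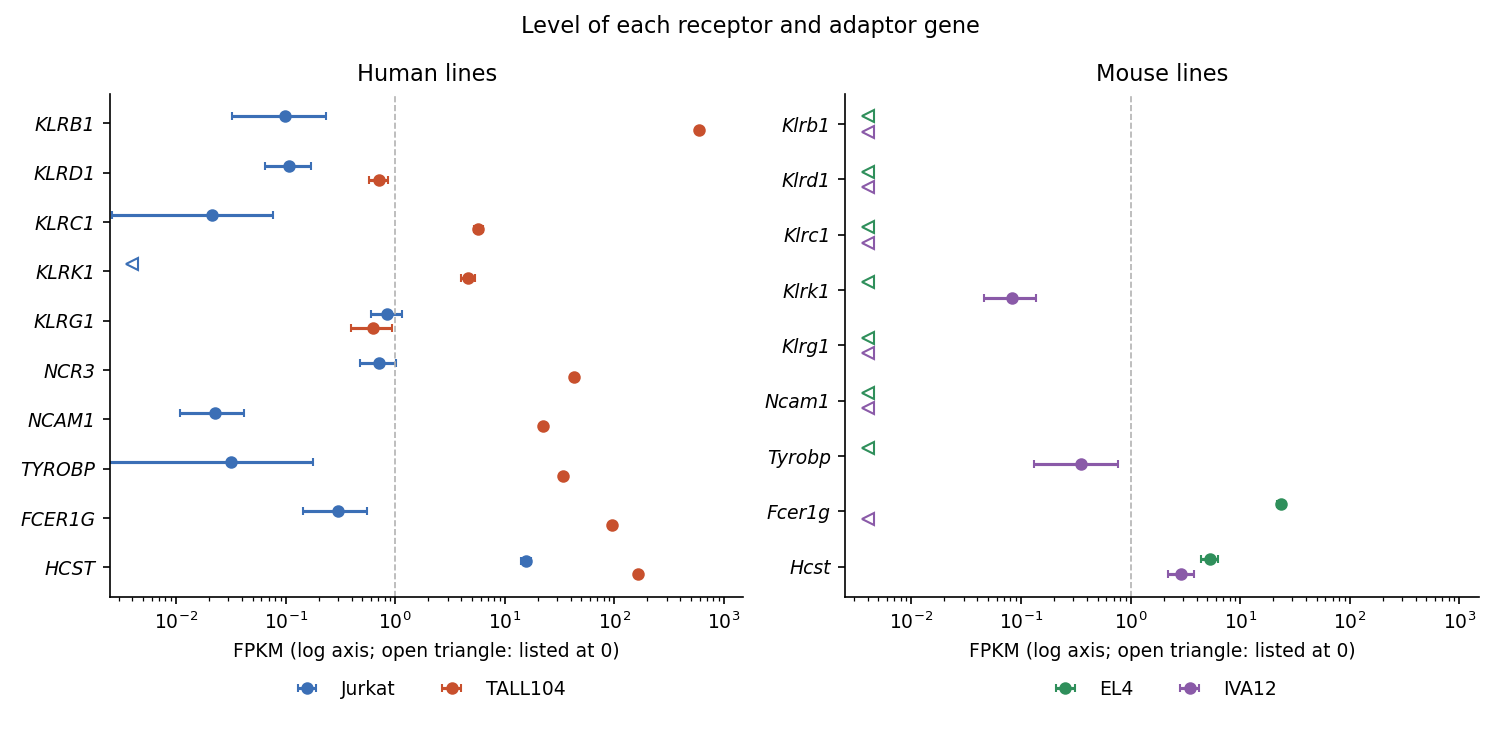
FPKM of each gene (log axis) in the human lines (left) and mouse lines (right), with 95% Poisson intervals as bars, open triangles for genes listed at 0 and a dashed line at 1 FPKM. In TALL104 the points run from 0.625 FPKM for KLRG1 to 590 for KLRB1, while in the mouse lines Fcer1g in EL4 and Hcst in both lines alone pass 1 FPKM.

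KLRB1 (ENSG00000111796, hg19 chr12:9747147-9760512, minus strand) had the highest level of the receptors and the widest gap between the lines. It had 0.0993 FPKM in Jurkat (5 reads, interval 0.0322 to 0.232) and 590 in TALL104 (24202 reads, interval 582 to 597). Among human genes this level ranked 25 in TALL104, and the log2 ratio of 9.07 ranked 2. Without a pseudocount the level in TALL104 was 5940 times that in Jurkat, with a counting interval from 2545 to 18294. The human gene nearest to it over the 2 libraries, by distance on the log2(FPKM + 1) scale, was ENSG00000161570 at a distance of 0.44, with 0.133 FPKM in Jurkat and 799.9 in TALL104. That gene has no symbol in the annotation used.

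The KLRC1 and KLRD1 partners differed in level within TALL104. KLRC1 (ENSG00000134545, chr12:10594863-10607284, minus strand) had 0.0213 FPKM in Jurkat (2 reads) and 5.71 in TALL104 (437 reads, interval 5.19 to 6.28), a log2 ratio of 2.72. The ratio of levels was 268, with an interval from 73.8 to 2221. KLRD1 (ENSG00000134539, chr12:10378657-10482207, plus strand) had 0.108 FPKM in Jurkat (19 reads, interval 0.0651 to 0.169) and 0.712 in TALL104 (102 reads, interval 0.580 to 0.864). It passed the threshold with a log2 ratio of 0.63 but was below 1 FPKM in both lines. Per length, KLRC1 stood at 8.03 times KLRD1 in TALL104. The length behind the deposited KLRD1 value was 5055 bases, and the annotation used here gives 17412 bases of exons, so its FPKM depends on the transcripts counted. KLRC1 shared 3.78% of its read-length windows with KLRC2.

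KLRK1 was far below its adaptor in TALL104. KLRK1 (ENSG00000213809, chr12:10524952-10544473, minus strand) had no read in Jurkat, where it was listed at 0, and 4.63 FPKM in TALL104 (199 reads, interval 4.01 to 5.32). Set against a floor of 3 reads in the Jurkat library, it was at least 81.4-fold higher in TALL104, and its log2 ratio on FPKM + 1 was 2.49. Its level was 0.0283 of that of HCST. The KLRK1 value is uncertain because 56.7% of its read-length windows also occur in the KLRC4-KLRK1 readthrough gene, which had 0.599 FPKM in TALL104 (44 reads) and 0 in Jurkat. The antisense gene KLRK1-AS1 lies opposite 31.9% of its exon bases and had 0.0305 FPKM in Jurkat and 0.0125 in TALL104.

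NCR3 and NCAM1 were both low in Jurkat and well detected in TALL104. NCR3 (ENSG00000204475, chr6:31556672-31560783, minus strand), an activating receptor, had 0.712 FPKM in Jurkat (30 reads, interval 0.480 to 1.02) and 42.4 in TALL104 (1457 reads, interval 40.3 to 44.6), a log2 ratio of 4.66. Its level in TALL104 was 0.449 of that of FCER1G and 1.27 times that of CD247, its other possible partner. NCAM1 (ENSG00000149294, chr11:112831997-113149158, plus strand) had 0.0225 FPKM in Jurkat (10 reads, interval 0.0108 to 0.0414) and 22.5 in TALL104 (8125 reads, interval 22.0 to 22.9), a log2 ratio of 4.52. Genes on the opposite strand cover 7.89% of the NCAM1 exon bases.

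KLRG1 was the exception among the human genes. KLRG1 (ENSG00000139187, chr12:9102640-9163356, plus strand), an inhibitory receptor that binds cadherins, had 0.841 FPKM in Jurkat (38 reads, interval 0.595 to 1.15) and 0.625 in TALL104 (23 reads, interval 0.396 to 0.937). The intervals overlapped. Its log2 ratio was -0.18, and the ratio of levels was 0.743, with an interval from 0.422 to 1.28 that includes equal levels. A difference was therefore not detectable at this depth.

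All 3 adaptors were higher in TALL104, and they differed in how much Jurkat had. TYROBP (ENSG00000011600, chr19:36395303-36399197, minus strand) had 0.0317 FPKM in Jurkat, from 1 read, and 34.0 in TALL104 (873 reads, interval 31.7 to 36.3). Its log2 ratio was 5.08, and the ratio of levels was 1071, with an interval from 192 to 42360 set by that 1 read. FCER1G (ENSG00000158869, chr1:161185024-161190489, plus strand) had 0.298 FPKM in Jurkat (10 reads, interval 0.143 to 0.548) and 94.5 in TALL104 (2582 reads, interval 90.9 to 98.2), a log2 ratio of 6.20. HCST (ENSG00000126264, chr19:36393431-36395279, plus strand) had 15.7 FPKM in Jurkat (334 reads, interval 14.0 to 17.4) and 164 in TALL104 (2847 reads, interval 158 to 170), a log2 ratio of 3.31. HCST was thus detected in both lines, at 10.5 times the level in TALL104 (interval 9.34 to 11.8), while FCER1G and TYROBP were under 1 FPKM in Jurkat. HCST and TYROBP lie tail to tail with 23 bases between them in hg19, and 126 in mm10, and no read-length window of either occurs in another gene.

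The gene nearest to FCER1G over the human libraries was TNFSF14, at a distance of 0.30, with 0.0894 FPKM in Jurkat and 106 in TALL104. RNF213 was nearest to HCST, at a distance of 0.11, with 17.0 FPKM in Jurkat and 163 in TALL104. Likeness over 2 libraries is a description only.

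In the order of levels in TALL104, KLRB1 was followed by HCST, FCER1G, NCR3, TYROBP, NCAM1, KLRC1, KLRK1, KLRD1 and KLRG1. The intervals of neighbours were apart except for KLRC1 with KLRK1 and KLRD1 with KLRG1. In Jurkat, HCST was first, and the intervals of KLRG1 and NCR3, the next in order, overlapped.

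**Figure D2:**
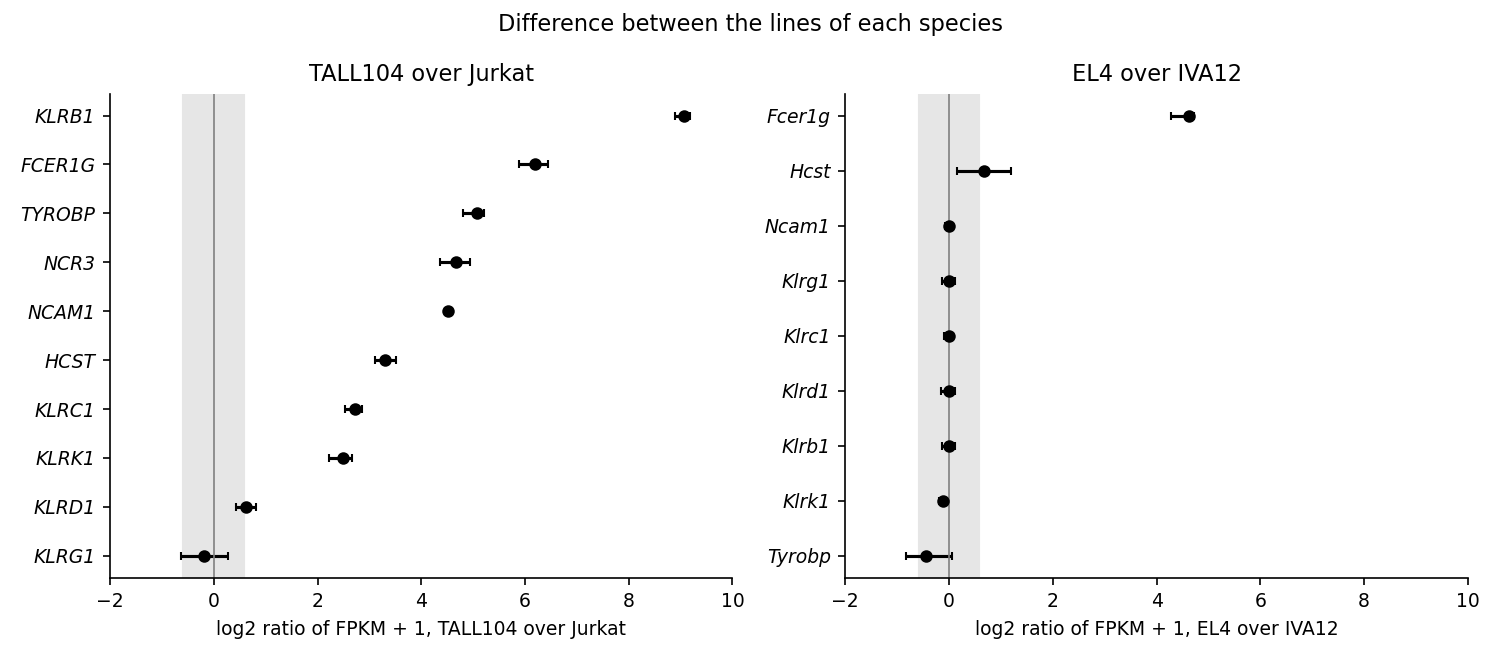
log2 ratio of FPKM + 1 for each gene, TALL104 over Jurkat (left) and EL4 over IVA12 (right), with grey for less than 1.5-fold. Bars pair opposite ends of the 95% Poisson limits of the 2 levels. The human points lie to the right of the grey band except KLRG1 at -0.18, and among the mouse points Fcer1g at 4.62 and Hcst at 0.68 lie to its right.

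CD247, the zeta chain of the T cell receptor, also carries ITAMs and serves NK receptors, so the makeup of the adaptor pool was compared with it included. In Jurkat the 4 adaptor genes summed to 54.9 FPKM, of which CD247 was 70.8%, HCST 28.6%, FCER1G 0.544% and TYROBP 0.0578%. In TALL104 they summed to 326 FPKM, of which HCST was 50.3%, FCER1G 29.0%, TYROBP 10.4% and CD247 10.2%. CD247 itself had 38.9 FPKM in Jurkat and 33.4 in TALL104, within 1.5-fold. In EL4 the sum was 34.8 FPKM, with Fcer1g at 67.7%, Cd247 at 17.2% and Hcst at 15.1%. IVA12 had a sum of 3.46 FPKM, of which Hcst was 83.9%.

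**Figure D3:**
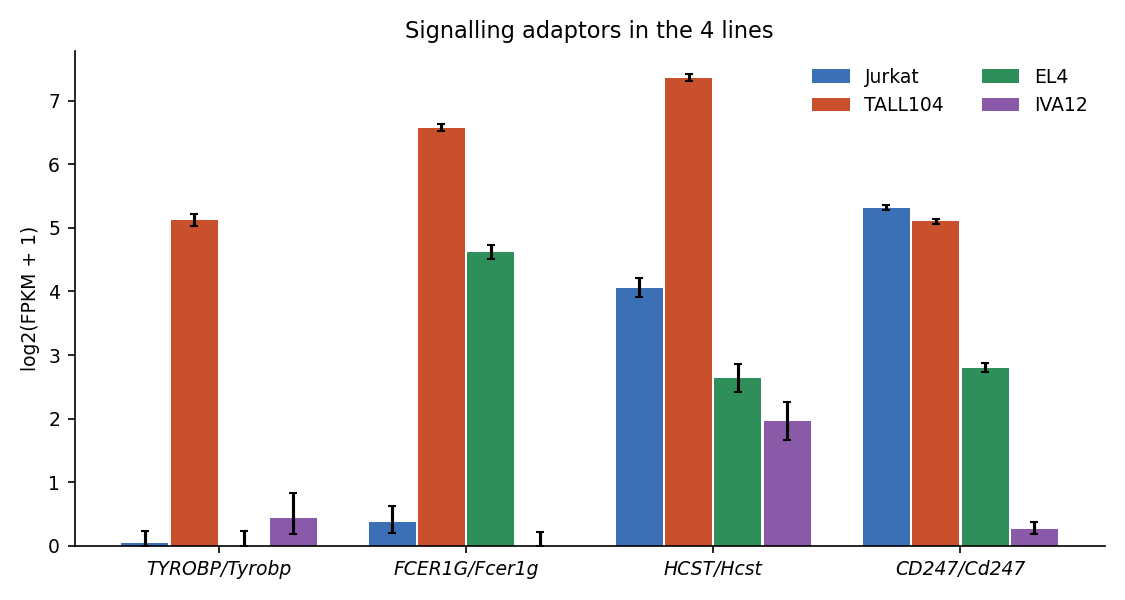
Level of each adaptor gene as log2(FPKM + 1) in the 4 lines, with bars from 0 and 95% Poisson intervals. TALL104 has all 4 adaptors, Jurkat has CD247 (38.9 FPKM) and HCST (15.7 FPKM), EL4 lacks Tyrobp, and IVA12 has Hcst alone above 1 FPKM.

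The mouse lines had few of these genes. Klrb1, Klrd1, Klrc1, Klrg1 and Ncam1 were listed at 0 in both EL4 and IVA12, and for Klrb1 (ENSMUSG00000079299) the exact Poisson interval reached up to 0.0817 FPKM in EL4. On FPKM + 1, 2 of 9 were more than 1.5-fold higher in EL4 and none in IVA12, against 9.75% of the 27998 mouse genes toward EL4 and 11.2% toward IVA12. Over the 10801 mouse genes with at least 1 FPKM in either line, the shares were 23.8% and 26.5%. Mouse Klrc1 shared 14.3% of its read-length windows with Klrc2, which was listed at 0 in both lines as well.

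Fcer1g (ENSMUSG00000058715, mm10 chr1:171229572-171234365, minus strand) was the most abundant mouse member, with 23.6 FPKM in EL4 (662 reads, interval 21.8 to 25.4), and was listed at 0 in IVA12. It was at least 174-fold higher in EL4 against a floor of 3 reads in IVA12, and its log2 ratio on FPKM + 1 was 4.62. Hcst (ENSMUSG00000064109, chr7:30417712-30419854, minus strand) had 5.26 FPKM in EL4 (122 reads, interval 4.37 to 6.28) and 2.90 in IVA12 (53 reads, interval 2.17 to 3.80), a ratio of 1.81 with an interval from 1.30 to 2.55. Its log2 ratio on FPKM + 1 was 0.68, just past the threshold.

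Tyrobp (ENSMUSG00000030579, chr7:30413760-30417585, plus strand) had 6 reads in IVA12, or 0.356 FPKM (interval 0.131 to 0.774), and was listed at 0 in EL4. Klrk1 (ENSMUSG00000030149, chr6:129610323-129623864, minus strand) was at 0 there too, with 15 reads in IVA12, or 0.0826 FPKM (interval 0.0462 to 0.136). On FPKM + 1 both lay within 1.5-fold, with a log2 ratio of -0.44 for Tyrobp, whose interval from -0.83 to 0.05 includes no difference, and of -0.11 for Klrk1 (interval -0.18 to -0.04). No human member had more than 2 reads in IVA12. The Poisson intervals of the human members reached up to 0.238 FPKM there, for HCST with 0 reads over 613 bases. The Tyrobp level lay above this limit, but its own interval spanned it. The limit follows from the short length of HCST, so it measures no background for Tyrobp or for Klrk1, whose length was 7183 bases. Other human genes had more reads in IVA12, such as PTPN11 with 23 (0.130 FPKM) and HLA-E with 15 (0.199 FPKM). Whether the Tyrobp reads exceed the background was not tested.

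Other receptors of NK cells, on a list of further families, were compared in the same way. In human, 15 of 24 were more than 1.5-fold higher in TALL104, 1 in Jurkat and 8 lay within 1.5-fold, with a median log2 ratio of 0.83. The shares were 11.4% and 13.8% over all human genes and 28.4% and 34.2% over genes reaching 1 FPKM in a line. CD96, a nectin-like receptor of T and NK cells, had 14.3 FPKM in Jurkat and 541 in TALL104. KLRF2, a lectin-like receptor of the same gene complex as KLRB1, had 56.0 FPKM in TALL104 and was listed at 0 in Jurkat. KIR3DL2, an inhibitory receptor of the KIR family, had 0.153 and 45.4 FPKM, and NCR1 (NKp46), which pairs with FCER1G or CD247, had 0.0152 and 33.5 FPKM. FCGR3A (CD16), which also pairs with these adaptors, had 0.00966 and 0.0237 FPKM. The gene higher in Jurkat was CD226, with 12.9 FPKM against 7.54 in TALL104. CD226 and FCGR3A were named after their values were seen. KIR and KLRC genes are close copies of each other, so their reads may be divided wrongly among them.

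In the mouse, 6 of 29 other receptors were higher in EL4, 1 in IVA12 and 22 lay within 1.5-fold, with a median log2 ratio of 0.00, beside 9.75% and 11.2% of all mouse genes and 23.8% and 26.5% of genes reaching 1 FPKM in a line. Klra1, a Ly49 receptor that in the mouse takes the place of the KIRs, had 170 FPKM in EL4 and 0.112 in IVA12, although its family is made of close copies. Cd96 had 35.6 FPKM in EL4 and 0.0181 in IVA12, and Tigit, an inhibitory receptor of the same ligand family, had 6.98 and 0.0411. Fcgr4, an activating Fc receptor that uses Fcer1g, had 0.0248 FPKM in EL4 and 12.2 in IVA12, so that IVA12 had this receptor while Fcer1g was listed at 0 there. Cd96 was thus higher in TALL104 of the human pair and in EL4 of the mouse pair.

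Proteins that act below the adaptors were detected in both human lines: 20 of 23 genes passed 1 FPKM in Jurkat and 23 in TALL104. Of all 32738 human genes, 10857 and 10822 did. Of the 23 signalling genes, 11 were higher in TALL104, 3 in Jurkat and 9 lay within 1.5-fold, with a median log2 ratio of 0.47. The shares of all human genes with at least 1 FPKM in either line were 28.4% toward TALL104 and 34.2% toward Jurkat, and the count higher in Jurkat was 2 after scaling by the median ratio and at 2-fold. The kinases that bind ITAMs were present in both, SYK at 21.0 FPKM in Jurkat and 25.9 in TALL104 and ZAP70 at 64.5 and 99.8. The largest gaps were for LYN, a kinase of the SRC family, with 0.00846 and 23.9 FPKM, and for LAT2, a membrane scaffold, with 0.247 and 29.0.

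PIK3CD, the phosphoinositide 3-kinase catalytic subunit of leukocytes, had 6.60 FPKM in Jurkat and 87.4 in TALL104, while the regulatory subunit PIK3R1, at 23.3 and 26.8, and GRB2, at 49.1 and 40.6, lay within 1.5-fold. INPP5D (SHIP1), the lipid phosphatase that opposes the kinase, had 5.004 FPKM in Jurkat and 67.3 in TALL104. LCP2 (SLP-76), a scaffold, had 16.8 and 71.2, and PLCG1, a phospholipase, had 37.4 and 58.2. LCK, the kinase that starts signalling in T cells, had 190 FPKM in Jurkat and 173 in TALL104. The genes higher in Jurkat were PTPN11, a phosphatase, at 67.3 FPKM against 28.3, and the exchange factors VAV3 at 24.4 against 1.83 and VAV2 at 5.58 against 3.22. SYK, PIK3R1, GRB2, VAV3 and VAV2 were named for their roles or after their values were seen.

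Of the same proteins in the mouse, 10 of 23 were higher in EL4, 4 in IVA12 and 9 lay within 1.5-fold, with a median log2 ratio of 0.40. The shares were 23.8% and 26.5% of mouse genes with at least 1 FPKM in either line, and 9.75% and 11.2% of all mouse genes. Lat, the scaffold of T cell receptor signalling, had 106 FPKM in EL4 and 0.143 in IVA12, Lck had 96.5 and 0.527, and Zap70 had 47.8 and 0.0264. Ptpn6 (SHP-1), the phosphatase that ITIMs recruit, had 266 FPKM in EL4 and 6.31 in IVA12. Plcg2 had 80.8 and 56.2 FPKM, and Grb2 had 37.4 and 52.2. The 4 genes higher in IVA12, named after their values were seen, were Syk, Lyn, Plcg1 and Vav2. Syk had 13.0 FPKM in IVA12 and was listed at 0 in EL4, so EL4 had Fcer1g with Zap70 and without Syk, and IVA12 had Syk with Fcer1g at 0.

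**Figure D4:**
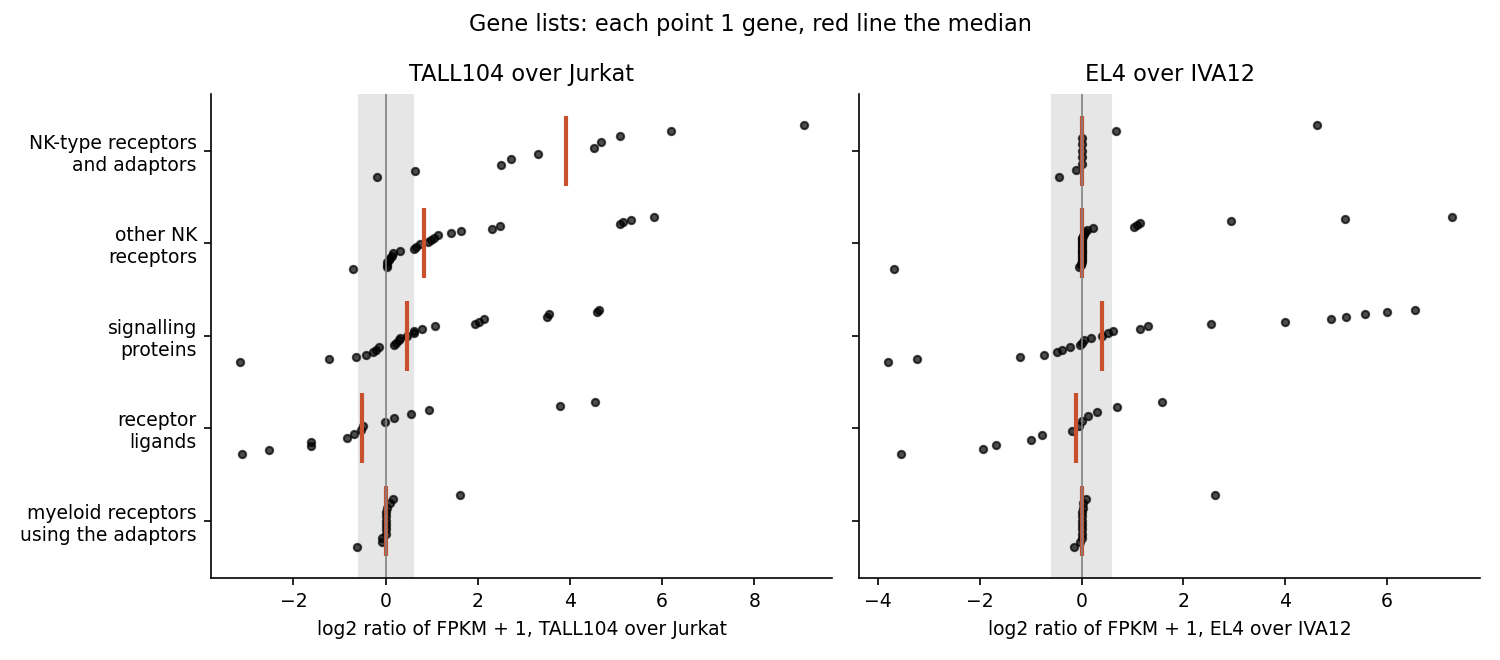
log2 ratio of FPKM + 1 for every gene of 5 lists, TALL104 over Jurkat (left) and EL4 over IVA12 (right), with a red line at each median and grey for less than 1.5-fold. The human receptor and adaptor genes have a median of 3.91, and the other human lists have medians of 0.83, 0.47, -0.51 and 0.00 from top to bottom.

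Of 14 genes for ligands of the human receptors, 3 were higher in TALL104, 6 in Jurkat and 5 lay within 1.5-fold, with a median log2 ratio of -0.51. The background shares at 1 FPKM in either line were again 28.4% and 34.2%, and 11.4% and 13.8% over all human genes. Nothing is read from these ligand counts. CLEC2D (LLT1), the ligand of KLRB1, had 1.21 FPKM in Jurkat and 50.9 in TALL104, where KLRB1 stood at 11.6 times its level. HLA-E, the ligand of the KLRC1 and KLRD1 heterodimer, had 24.8 and 356 FPKM. NCR3LG1 (B7-H6), a ligand of NCR3, had 15.0 FPKM in Jurkat and 1.76 in TALL104, and CDH2, a cadherin, had 8.47 and 0.0855. Of the KLRK1 ligands, MICA had 4.63 FPKM in Jurkat and 9.77 in TALL104, MICB had 19.9 and 13.9, ULBP1 5.22 and 1.03, and ULBP2 7.20 and 3.61. BAG6, a further ligand of NCR3, had 49.0 and 30.2. These ligands of KLRK1 and NCR3 were added after their values were seen.

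Among 12 mouse ligands, 2 were higher in EL4, 5 in IVA12 and 5 lay within 1.5-fold, with a median log2 ratio of -0.11, beside background shares of 23.8% and 26.5% at 1 FPKM in either line and 9.75% and 11.2% over all mouse genes. H60b and Raet1d, ligands of Klrk1, had 10.6 and 2.196 FPKM in IVA12, against listed values of 0 in EL4. Ulbp1, another Klrk1 ligand, was higher in EL4, with 21.6 FPKM against 12.9 in IVA12, and was named after its value was seen. H2-T23 (Qa-1), the mouse counterpart of HLA-E, had 12.9 FPKM in EL4 and 52.1 in IVA12, and Clec2i, a lectin-like ligand of the Klrb1 family, had 52.8 and 16.9. Klrk1 and Klrc1 were at or near 0 in both lines, as given above, while Klrb1f of the Klrb1 family, also named after its value was seen, had 1.35 FPKM in EL4 and 0.0586 in IVA12.

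TYROBP and FCER1G also serve receptors of myeloid cells and mast cells, and these receptors were mostly absent. Of 13 human genes, 1 was higher in TALL104, 1 in Jurkat and 11 lay within 1.5-fold. The shares over all human genes were 11.4% and 13.8%, so nothing is read from these counts. PILRB, a paired receptor that uses TYROBP, had 14.1 FPKM in Jurkat and 45.3 in TALL104, and SIRPB1 had 0.642 and 0.0637. FCER1A and LILRA2, the next by size of ratio, were at or under 0.121 FPKM in both lines, and MS4A2, the beta chain that joins FCER1A and FCER1G in mast cells, was listed at 0 in both. In the mouse, 1 of 13 was higher in EL4 and none in IVA12, beside 9.75% and 11.2% of all mouse genes. That gene was Clec4e (Mincle), a lectin receptor that uses Fcer1g, with 5.13 FPKM in EL4 (listed at 0 in IVA12), while Fcgr3, Gp6 and Oscar were at or under 0.152 FPKM in both lines.

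Markers of other cell types that use these adaptors were set beside the adaptor levels. For the counts below, the shares past 1.5-fold over all human genes were 11.4% toward TALL104 and 13.8% toward Jurkat. The 6 myeloid markers summed to 1.18 FPKM in Jurkat and 3.07 in TALL104, with 1 of 6 higher in TALL104 (ITGAM, 0.0406 and 1.47). CD68, which many cell types express, had 1.05 and 1.42 FPKM, CD14 had 0.0457 and 0.0187, LYZ 0.0326 and 0.160, MPO 0.00794 and 0, and CSF1R was listed at 0 in both. Of the 4 mast cell markers, KIT was higher in TALL104, with 0.336 FPKM in Jurkat and 326 in TALL104, while FCER1A had 0.121 FPKM in TALL104 and MS4A2 and CPA3 were listed at 0 there. Among the human B cell markers CD79A had 16.5 and 24.6 FPKM, CD79B 0.0415 and 4.80, and MS4A1 0.0236 and 0.384. KIT and ITGAM moved with the adaptors, and their part in the result was not tested. The T cell markers had 3 of 5 higher in Jurkat, CD3D at 400.1 FPKM against 250, CD2 at 86.0 against 15.6 and CD5 at 29.9 against 12.5, with CD3E at 166 and 233 and CD3G at 70.4 and 61.3.

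In the mouse lines the mast cell marker Cpa3 had 199 FPKM in EL4 and 0.0521 in IVA12, beside Fcer1g, while Kit had 0.0105 FPKM in EL4 and Fcer1a and Ms4a2 were listed at 0 there. The myeloid markers summed to 4.08 FPKM in EL4 and 22.8 in IVA12, of which Cd68 gave 2.43 and 22.5, and Csf1r was listed at 0 in both. Of these 6 markers, Cd68 was more than 1.5-fold higher in IVA12 and 1 other was higher in EL4. At 1 FPKM or more, 2 were detected in EL4 and 1 in IVA12. The shares past 1.5-fold over all mouse genes were 9.75% toward EL4 and 11.2% toward IVA12. All 5 T cell markers were higher in EL4, led by Cd3d at 197 FPKM against 0.0299. The part of Cpa3 and of the myeloid markers in the result was not tested.

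KLRB1, KLRD1, KLRK1 and KLRC1 lie within 860 kb of chromosome 12, the NK gene complex, so every gene measured between KLRB1 and KLRC1 was examined. This stretch was chosen after values had been seen. Of its 24 protein-coding genes, 15 were more than 1.5-fold higher in TALL104 and none in Jurkat. Over all human genes the shares were 11.4% and 13.8%, and over genes reaching 1 FPKM in a line 28.4% and 34.2%. The 15 include the members KLRB1, KLRD1, KLRK1 and KLRC1, counted above, and KLRB1 and KLRC1 set the ends of the stretch. They also include KLRC4-KLRK1, which shares read-length windows with KLRK1. Nothing is therefore read from this count against the shares. At 1 FPKM or more, 11 of the 24 were detected in TALL104 and 4 in Jurkat, beside 10822 and 10857 of all 32738 human genes. The genes between included CD69, an early activation marker, with 5.05 FPKM in Jurkat and 30.8 in TALL104, and CLEC2B, with 5.74 and 39.6. GABARAPL1, an autophagy protein and no lectin, had 6.69 and 56.1, and CLEC12A had 0.0973 and 11.3. In the same stretch CLEC1B, CLEC1A and OLR1 were listed at 0 in both lines. High and low genes were therefore interspersed, with KLRB1 at 590 FPKM in TALL104 at the left end and KLRC1 at 5.71 at the right end. KLRG1 lies outside the stretch.

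**Figure D5:**
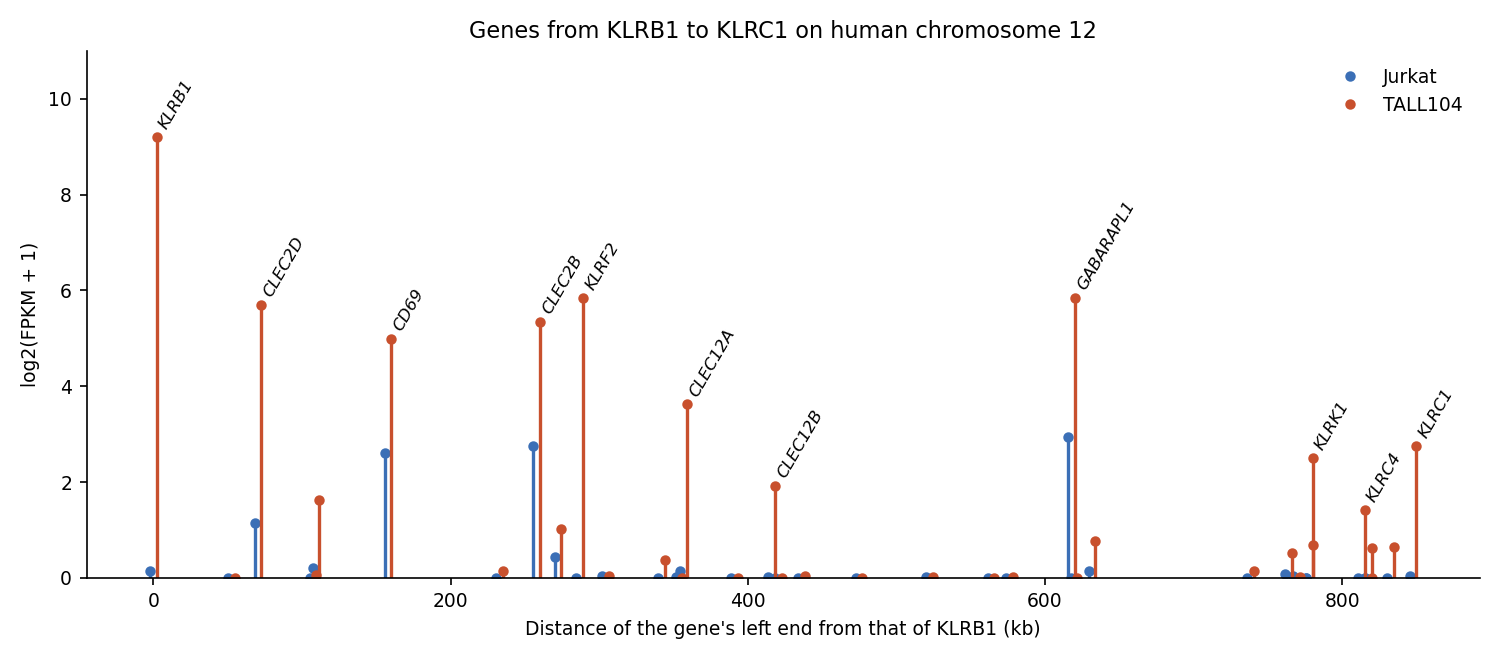
log2(FPKM + 1) of each gene from KLRB1 to KLRC1 on chromosome 12, against the distance in kb from KLRB1, in Jurkat (blue) and TALL104 (red), with protein-coding genes of at least 1 FPKM in TALL104 named. The tallest red lines, from CD69 at 30.8 FPKM upward, stand at KLRB1, CLEC2D, CD69, CLEC2B, KLRF2 and GABARAPL1, and genes at or near 0, such as CLEC1A and OLR1, lie among them.

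Promoter sequences are shown for KLRB1 and the 3 adaptors, since these genes had the highest levels in TALL104 of the members with an entry. They are the 250 bases before the start of the RefSeq gene in GRCh38.p14, whose coordinates differ from those of hg19, and 6 of the 10 human genes had an entry. Capitals mark matches on either strand to core motifs of transcription factor families active in cytotoxic cells: TGTGGT for RUNX, TCACAC for T-box factors, AGGAAG for ETS and TTCNNNGAA for STAT. KLRB1 was read from chr12:9607917-9608166 (minus), FCER1G from chr1:161215045-161215294 (plus), TYROBP from chr19:35908296-35908545 (minus) and HCST from chr19:35902279-35902528 (plus).
KLRB1: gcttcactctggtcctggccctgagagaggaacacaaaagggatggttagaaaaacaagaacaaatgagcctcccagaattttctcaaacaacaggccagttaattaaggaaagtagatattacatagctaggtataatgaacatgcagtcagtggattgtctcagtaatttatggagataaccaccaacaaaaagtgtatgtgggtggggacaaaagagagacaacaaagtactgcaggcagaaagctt
FCER1G: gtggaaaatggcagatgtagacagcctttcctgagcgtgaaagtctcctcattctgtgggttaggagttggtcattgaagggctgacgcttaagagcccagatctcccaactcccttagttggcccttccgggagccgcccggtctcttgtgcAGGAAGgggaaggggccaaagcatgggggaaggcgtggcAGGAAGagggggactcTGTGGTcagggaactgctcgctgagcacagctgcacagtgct
TYROBP: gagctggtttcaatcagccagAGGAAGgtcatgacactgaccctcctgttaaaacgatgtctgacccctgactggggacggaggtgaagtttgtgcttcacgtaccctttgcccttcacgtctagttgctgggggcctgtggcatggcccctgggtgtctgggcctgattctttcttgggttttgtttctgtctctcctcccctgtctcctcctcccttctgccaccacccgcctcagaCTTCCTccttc
HCST: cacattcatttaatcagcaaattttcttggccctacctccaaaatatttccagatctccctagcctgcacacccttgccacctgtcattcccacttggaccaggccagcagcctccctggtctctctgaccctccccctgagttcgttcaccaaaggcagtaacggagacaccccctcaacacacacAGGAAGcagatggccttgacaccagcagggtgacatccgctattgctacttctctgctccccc
No match overlapped another in the stretches shown, and the KLRB1 stretch held none of these letters. The ETS letters occurred in FCER1G, TYROBP and HCST, and also in a KLRC1 stretch. That was 4 of the 9 stretches of the 6 genes, against 28.7% of the 35116 promoters of the same source. RUNX letters occurred in 1 of the 9 stretches, that of FCER1G, against 10.98% of promoters. T-box letters occurred in 1, of KLRC1, against 9.90%, and STAT letters in none, against 6.57%. KLRG1, the gene that did not differ past the threshold, held none in either of its stretches. A match describes the letters only, and no binding was measured.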

How the data were processed

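RNA of Jurkat, TALL104, EL4 and IVA12 was sequenced as stranded messenger RNA, 1 library per line, with depths recovered here of 25286728 to 34783047 reads. The authors aligned reads to a combined hg19 and mm10 reference with STAR 2.5.1b and counted them with featureCounts 1.6.3, as the submitters' processing notes and the study's methods give them, and deposited FPKM values for both species in 1 table. Handling of multiply aligned reads and the strand setting of the counting are not given in the sources used here, so antisense overlaps cannot be told apart. No column per library was left unused (0 columns).

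Reads were recovered as the smallest whole numbers that fit the FPKM at a relative tolerance of 1e-12 with gene lengths up to 300000 bases. All values above 0 came out whole. The reads of a gene above 0 in few libraries may miss a common factor, as for KLRK1 and KLRG1, whose recovered lengths of 1515 and 1299 bases are short of the annotated 3044 and 2593, and their intervals are then too wide. In simulated libraries of 32738 genes of the human pair, the exact reads came back for 84.7% of the genes with a read. The 200 genes given a change were all assigned to the correct line, while 49 of 32538 genes given no change were called too. The changes were of 2-fold or more, in genes with a mean of at least 5 FPKM, with counting noise only. The simulation therefore says nothing on low genes such as KLRD1 and KLRG1, on changes near 1.5-fold or on the spread between cultures. Count models need replicates and were not used.

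Lines were compared within a species as log2 ratios of FPKM + 1, with a threshold of 1.5-fold. Intervals are exact Poisson at 95% for levels and conditional binomial for ratios of levels where both lines had reads. Intervals of log2 ratios on FPKM + 1 pair opposite ends of the Poisson limits of the 2 levels, so they are wider than 95%. A count of 0 was given a floor of 3 reads per library. Gene positions came from GENCODE (hg19 and mm10), promoters from RefSeq. Alternatives were pseudocounts of 0.1 and 0.01, 2 scalings, a minimum of 1 FPKM, a 2-fold threshold and other limits of detection. The text names all members, in each further list the 4 genes with the largest ratio and those with at least 50 FPKM, and the nearest gene to each member with at least 50 FPKM. The members and lists were chosen with earlier results of these data known. KIR2DS4, Klrh1, Raet1a, Raet1b, Raet1c and mouse Ncr3 were not analysed here. Python 3.11.15, NumPy 2.4.6, pandas 2.3.3, SciPy 1.17.1, matplotlib 3.10.9 and Biopython 1.88 were used.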

Additional observations from a re-analysis of the deposited data

How the results depend on the processing

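Of 170 recomputed values, 125 stayed and 45 moved, and none changed sign; a ratio or median stayed if it lay inside its counting interval, and a count if it was within 1.5 times. Counts that stayed could still shift, as the other human NK receptors higher in TALL104 did from 15 to 20 with a pseudocount of 0.1 and to 10 at 2-fold. The median log2 ratio of the human members was 5.65 with a pseudocount of 0.1, 7.89 with 0.01 and 4.59 over members with at least 1 FPKM in either line. The mouse median was 2.65 under that minimum, and the mouse members higher in IVA12 were 2 with either smaller pseudocount. At 2-fold, 1 mouse member was higher in EL4, the other human NK receptors higher in Jurkat were 0, mouse ligands were 1 in EL4 and 3 in IVA12, and human myeloid receptors higher in Jurkat were 0. With a pseudocount of 0.1, human ligands higher in TALL104 were 5, human myeloid receptors higher in TALL104 were 3, and mouse myeloid receptors were 2 in EL4 and 1 in IVA12. Members detected in Jurkat were 5 at 0.1 FPKM and 4 above the upper limit of the other species. In IVA12 they were 2 at 0.1 FPKM, 0 at 5 FPKM and 2 above that limit. These moves follow from how each alternative is built. Scaling shifted the human log2 ratios by 0.11 under both scalings and the mouse ratios by 0.01 and 0.02, toward TALL104 and EL4, and moved no count of members. It moved the ratio of NCAM1 under both scalings and of KLRB1 under the median ratio. Of 76 recomputed ratios of single members, 25 moved. With pseudocounts of 0.1 and 0.01, KLRB1 was at 11.5 and 12.4 and KLRK1 at 5.56 and 8.86. Of the human members, only KLRG1 and HCST stayed under both pseudocounts. Low counts limit TYROBP and KLRC1 in Jurkat and Tyrobp in IVA12. No paired analysis was possible because each line had 1 library.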
